A study of Mus musculus with 9 samples.

Results

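The 38 genes described here encode the core machinery of autophagy and the receptors that bring cargo to it. They were chosen by name, as the rows of the raw count table whose GENCODE symbol was on a list of their names, and all 38 were found among its 20189 genes. They comprise 5 genes of the ULK1 complex, 6 of the class III PI3K complexes, 6 that read PI3P or move lipid, 10 of the conjugation systems, 5 ATG8 genes, 5 receptors and 1 fusion gene. In autophagy a cup of membrane grows around a piece of cytoplasm, closes, and fuses with a lysosome, whose enzymes return the contents as building blocks, amino acids among them. A shortage of amino acids is a classic trigger: mTORC1, the kinase that senses them, holds the ULK1 complex back while they are plentiful. Much of that control acts on proteins that are already made, and mRNA is a separate layer that the present counts measure.

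The cells were E14, a line of mouse embryonic stem (ES) cells, wild type in every group, and were kept on gelatin with leukemia inhibitory factor. Poly(A) RNA was sequenced from 3 unstarved, 3 Cys-starved and 3 Thr-starved libraries, 9 in all. Starved cells went without Cys or Thr, as their sample titles say, and unstarved cells had all amino acids. The starvation lasted 3 h, a time that the titles do not give. The treatment text given with these samples describes SILAC medium with dialyzed serum, LIF, β-mercaptoethanol and GlutaMAX but names Arg and Leu as the amino acids left out. For its cell death assays the study describes a Cys-free DMEM with dialyzed serum. Whether the Cys-starved cells sequenced here were in that medium is not stated, nor is the medium of the Thr-starved cells. Nothing states that the 3 replicates of a group were separate cultures, so the p-values measure the spread between these libraries, which may be technical. They all came from 1 wild-type line. The study describes its samples as sequenced on 1 kit, without naming these libraries. The column names of the unstarved libraries carry a tag that those of the starved ones lack, and its meaning is not given. A batch that went with this tag could not be told apart from starvation.

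Total counts ranged from 48763102 to 74962733 per library, and those of a single member in a library from 26 to 19317. Levels are given as CPM, the usual unit of counts scaled by library size, after TMM, and for comparisons between genes as CPM per kb of the longest annotated transcript. A gene was called when the Benjamini-Hochberg adjusted p of edgeR's quasi-likelihood test, over the 20143 genes with at least 1 count, was 0.05 or less. The common biological coefficient of variation was 3.53%. All 8 ES cell markers checked (Pou5f1, Nanog, Sox2, Zfp42, Klf4, Esrrb, Tdgf1 and Dppa5a) reached 1 CPM, with a summed level of 3907 to 3932 CPM in unstarved, 3728 to 3754 CPM in Cys-starved and 4137 to 4217 CPM in Thr-starved libraries. Markers of other lineages were low but moved with the groups. The sum of Sox1 and Pax6 was 15.5 to 16.5, 21.0 to 21.7 and 22.2 to 25.8 CPM, that of Gata6, Sox17 and Sox7 was 3.13 to 4.19, 4.39 to 5.52 and 1.94 to 2.47 CPM, that of T, Mixl1 and Hand1 was 3.39 to 4.68, 3.89 to 4.0 and 1.96 to 2.33 CPM, that of Cdx2 and Gata3 was 1.67 to 2.19, 2.26 to 2.73 and 2.57 to 3.17 CPM, and that of 3 collagen genes was 9.96 to 10.7, 9.51 to 12.6 and 8.76 to 9.53 CPM, in the same order of groups. Single markers within a sum could go opposite ways. With Thr starvation Klf4 (1.81-fold), Sox2, Esrrb and Zfp42 were called higher, and Nanog (-25.2%), Pou5f1, Tdgf1 and Dppa5a lower. Gata3 (3.36-fold) and Sox17 (2.30-fold) were called higher, and Cdx2 (-60.0%) and Sox7 (-69.1%) lower. The part of the markers in the results was not tested. In bulk RNA, fewer cells of a type and less RNA per cell cannot be told apart.

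Thr starvation raised 20 of the 38 members and lowered 9, and 9 were not called. The called share was 76.3%, beside 63.0% of all genes tested (31.1% higher, 31.9% lower) and 76.6% of the 14587 genes that averaged 1 CPM or more (38.1% higher, 38.5% lower). Members called higher made up 52.6% of the list and members called lower 23.7%. The median log2 fold change was 0.25 over the members and -0.02 over all genes. Changes were moderate, from -0.63 for Atg4c to 0.86 for Atg12, and 11 called members (4 higher and 7 lower) reached an absolute log2 fold change of 0.5. Called or not, 40.3% of all genes and 34.3% of those at 1 CPM or more reached 0.5. None of the members reached 1. The libraries of the 2 groups were fully separate for 31 members (81.6%), for 66.5% of all genes and for 78.3% of those at 1 CPM or more.

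Cys starvation changed fewer members and by less. Of the 38, 6 rose and 9 fell, which is 39.5% beside 36.3% of all genes tested (17.5% higher, 18.8% lower) and 47.8% of the genes at 1 CPM or more (22.4% higher, 25.4% lower). The range was from -0.36 for Tax1bp1 to 0.37 for Ulk2 on the log2 scale, no called member reached 0.5, and the median was 0.02, beside 0.01 over all genes. Called or not, 13.1% of all genes and 5.13% of those at 1 CPM or more reached 0.5. The split moved with the scaling. When the authors' own size factors replaced TMM, 3 members were called higher and 11 lower, and over all genes 36.8% of the calls were higher, against 48.2% with TMM. Without unstarved replicate 3 the number called higher was also 3. Cys-starved and unstarved libraries were fully separate for 20 members (52.6%), for 46.4% of all genes and for 57.2% of those at 1 CPM or more.

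Both starvations were compared with the same unstarved libraries, so they were also tested against each other. Thr-starved libraries were higher than Cys-starved ones for 20 members and lower for 11, which is 81.6% called beside 62.0% of all genes tested (30.4% higher, 31.6% lower) and 75.9% of those at 1 CPM or more (38.7% higher, 37.1% lower). The libraries were fully separate for 31 members, for 65.8% of all genes and for 77.5% of those at 1 CPM or more. All members that Thr starvation raised were also higher in this test, and all that it lowered were also lower. Opposite calls were made for 8 members (21.1%), beside 7.45% of all genes tested and 10.2% of those at 1 CPM or more. Ulk1, Atg101, Atg3, Gabarap, Gabarapl2 and Tax1bp1 were up in Thr-starved and down in Cys-starved cells, and Wipi2 and Calcoco1 were down in Thr-starved and up in Cys-starved cells. With GC and length offsets, which take out the dependence of each library's counts on GC content and transcript length, the Thr values of Atg3 and Gabarapl2 were near 0 and not called, and the Cys call of Gabarap was lost, as that of Calcoco1 was with the deposited size factors. The direction was shared for 4 members (10.5%, beside 21.8% of all genes and 29.1% of those at 1 CPM or more), with Atg14 and Atg2b higher and Pik3c3 and Ambra1 lower in both starvations. Another 5 members, Wipi1, Atg9a, Atg4d, Atg10 and Sqstm1, were called in none of the 3 comparisons (13.2%, beside 25.7% and 11.7%).

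**Figure D1:**
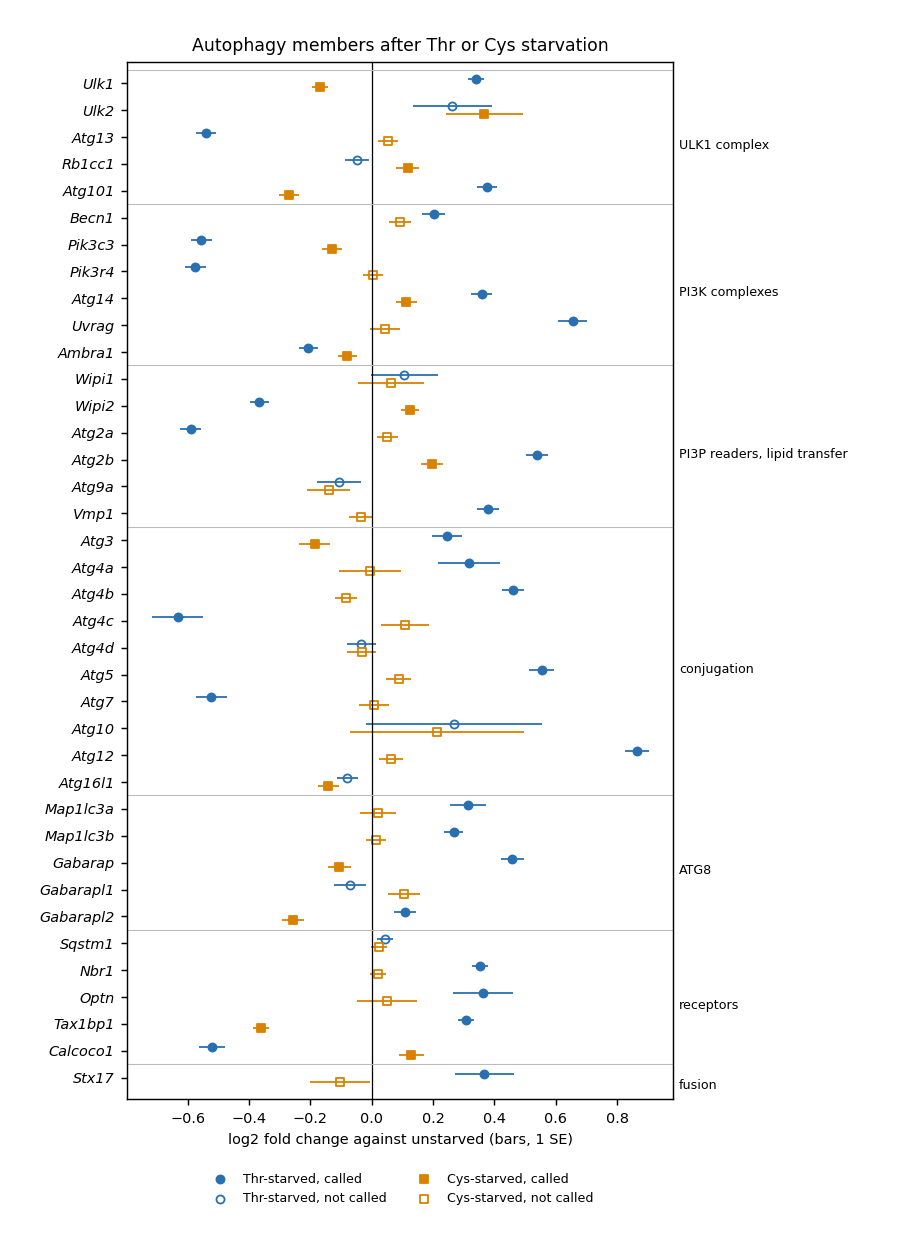
Log2 fold change against unstarved cells of the 38 autophagy genes, by role, after Thr starvation (blue circles) or Cys starvation (orange squares). Bars are 1 SE and filled symbols were called at an adjusted p of 0.05 or less by edgeR's quasi-likelihood test; Thr values spread from -0.63 to 0.86 and Cys values from -0.36 to 0.37.

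The members differed widely in level. Per kb of transcript, unstarved cells held most of the receptor Tax1bp1, at 50.5 ± 0.533 CPM per kb (SD, n = 3), followed by Sqstm1 at 45.3 ± 0.318, Atg101 at 41.2 ± 0.864, Gabarapl2 at 35.1 ± 1.94 and Gabarap at 34.3 ± 1.69 CPM per kb. The lowest were Ulk2 at 0.508 ± 0.0751, Atg10 at 0.529 ± 0.0545 and Stx17 at 0.996 ± 0.113 CPM per kb. Gabarapl2 and Gabarap could not be ordered beyond their spread, nor could Ulk2 and Atg10. That spread is between libraries only. Which transcript was expressed was not tested, so the order between genes rests on the longest annotated one. A mean of at least 1 CPM over the 9 libraries was reached by 37 members and one of 10 CPM by 31, with Atg10 the exception below 1 CPM. Related genes held unlike levels per kb: Ulk1 was at 31.3 ± 0.746 and its relative Ulk2 at 0.508 ± 0.0751, Wipi2 at 21.4 ± 0.632 and Wipi1 at 1.35 ± 0.175, Atg4b at 8.53 ± 0.0352 and Atg4a at 2.22 ± 0.176 CPM per kb.

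**Figure D2:**
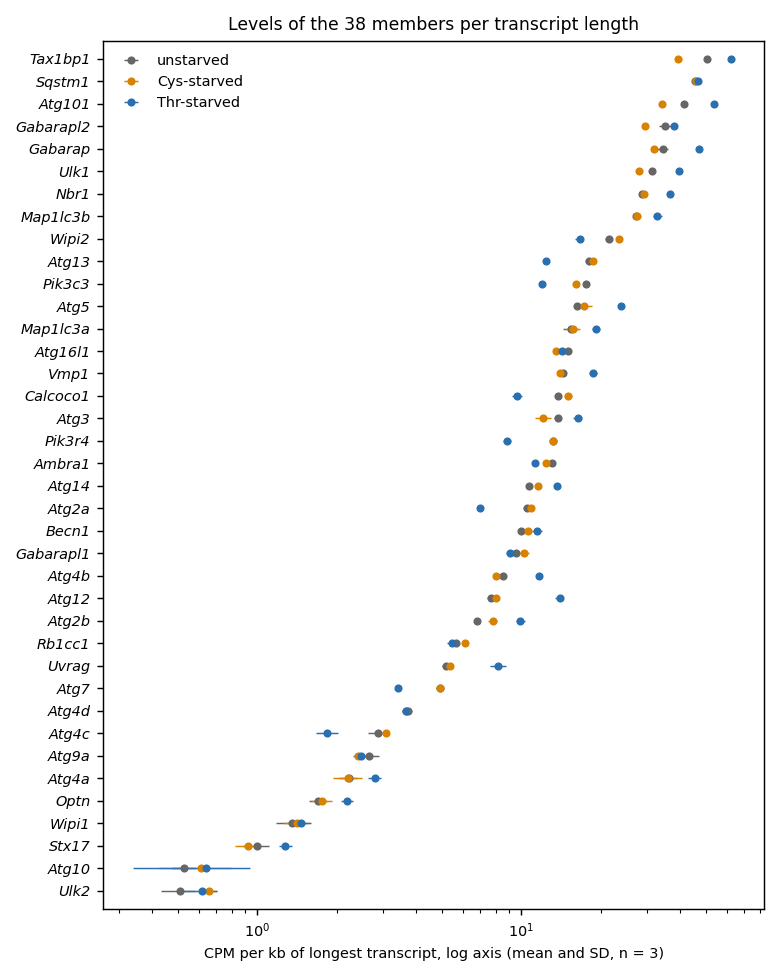
Level of each of the 38 members in CPM per kb of its longest transcript (log axis; mean and SD of 3 libraries), ordered by the unstarved level. Levels run from 0.508 for Ulk2 to 50.5 for Tax1bp1 in unstarved cells, and the blue Thr-starved points lie farthest from the other groups in Atg12, Uvrag and Atg4c.

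Promoter sequence was looked at for 3 short motifs known from stress and lysosome biology, because members moved together and apart after the same treatment. RefSeq start sites on GRCm38.p6 gave an entry for 32 of the 38 members, and Atg16l1, Rb1cc1, Map1lc3a, Atg12, Becn1 and Pik3c3 had none. The 250 bases before each start were searched on both strands. The core of the C/EBP-ATF response element, TGATGNAA, which ATF4 and its partners bind, was in no member's window and in 3.45% of all 32851 promoters. At so low a share, 38 promoter entries are too few to read this as a lack of the motif. Of the members without an entry, Atg12, Becn1 and Atg16l1 are among the known ATF4 or CHOP targets counted below. The E-box CACGTG, the core of the element read by TFEB and its relatives, was in the windows of Atg3, Atg5 and Atg7, in 3 of the members' 38 promoter entries (some have several start sites) and in 6.02% of all promoters. The antioxidant response element core TGACNNNGC, read by NRF2, was in those of Atg13, Tax1bp1, Ulk2 and Vmp1, in 6 of the 38 entries and in 10.2% of all promoters. No member's windows held both the E-box and the antioxidant core. Of the 3 genes with an E-box, Atg5 rose, Atg7 fell and Atg3 was called higher with Thr starvation. The E-box of Atg7 lay before a start site inside the gene, not before its first annotated base.

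Shown whole are the windows of Uvrag, the called member with the largest Thr increase among those with an entry (chr7:99141145-99141394 on the minus strand), and of Ulk2, the one with the largest Cys increase (chr11:61855093-61855342 on the minus strand). For the others the motif is shown with up to 40 bases on each side, at chr10:44268285-44268338 on the plus strand for Atg5, chr6:114670924-114671009 on the plus strand for Atg7, chr16:45158695-45158780 on the plus strand for Atg3, chr6:52713920-52714008 on the plus strand for Tax1bp1, chr2:91710786-91710842 on the minus strand for Atg13 and chr11:86683956-86684044 on the minus strand for Vmp1. Each is written 5′ to 3′ on the gene's strand, with the E-box (Atg5, Atg7, Atg3) or the antioxidant core (Ulk2, Tax1bp1, Atg13, Vmp1) in capitals.
Uvrag: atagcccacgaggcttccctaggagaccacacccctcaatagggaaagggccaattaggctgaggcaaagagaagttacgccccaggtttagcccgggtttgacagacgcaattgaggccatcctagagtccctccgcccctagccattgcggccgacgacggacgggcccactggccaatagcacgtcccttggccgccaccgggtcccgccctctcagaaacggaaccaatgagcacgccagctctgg
Ulk2: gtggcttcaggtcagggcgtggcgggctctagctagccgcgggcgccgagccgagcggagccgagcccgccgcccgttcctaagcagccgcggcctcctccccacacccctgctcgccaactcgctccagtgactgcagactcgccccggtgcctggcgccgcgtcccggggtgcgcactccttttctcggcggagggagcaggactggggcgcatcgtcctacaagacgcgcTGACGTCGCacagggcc
Atg5: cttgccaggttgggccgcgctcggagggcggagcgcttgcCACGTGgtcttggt
Atg7: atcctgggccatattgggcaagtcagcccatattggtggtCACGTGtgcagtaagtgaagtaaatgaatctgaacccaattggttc
Atg3: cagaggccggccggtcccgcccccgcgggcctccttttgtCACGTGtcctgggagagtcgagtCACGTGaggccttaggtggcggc
Tax1bp1: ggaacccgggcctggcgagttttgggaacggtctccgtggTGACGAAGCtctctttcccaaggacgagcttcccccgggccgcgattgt
Atg13: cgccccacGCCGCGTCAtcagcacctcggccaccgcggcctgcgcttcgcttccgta
Vmp1: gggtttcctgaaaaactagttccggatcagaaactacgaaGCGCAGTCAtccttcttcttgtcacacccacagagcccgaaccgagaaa
The Uvrag window held none of the 3 motifs. Atg3 held a pair of E-boxes, and the antioxidant cores of Atg13 and Vmp1 lay on the opposite strand. The stretches of Atg7 and Tax1bp1 lay inside their annotated genes, whose first bases on chr6 are 114643097 and 52713729. They belong to start sites further into the gene. A match of letters describes these windows only.

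The ULK1 complex starts the process, with ULK1 as its kinase, ATG13 and ATG101 as its scaffold and RB1CC1 (FIP200) as the large subunit that docks it. Its genes split after Thr starvation, with Ulk1 and Atg101 higher, Atg13 lower and Ulk2 and Rb1cc1 not called. Atg13 (ENSMUSG00000027244; chromosome 2 of GRCm38, 91674618 to 91710576) was at 62.8, 66.0 and 66.5 CPM in the unstarved, 67.2, 67.9 and 67.4 CPM in the Cys-starved and 45.2, 43.9 and 45.2 CPM in the Thr-starved libraries. All Thr-starved libraries lay well below the other 6, and the level fell by 31.2% (log2 -0.54 (SE 0.033, adjusted p = 1.3e-12)). With Cys starvation Atg13 had a log2 fold change of 0.05 (adjusted p = 0.21) and was not called.

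Ulk1 and Atg101 moved in opposite directions in the starvations. Ulk1 stood at 163 ± 3.89 CPM in unstarved, 145 ± 3.21 CPM in Cys-starved and 206 ± 4.17 CPM in Thr-starved cells (SD, n = 3 each), a Thr change of 0.34 (adjusted p = 9.6e-11) and a Cys change of -0.17 (adjusted p = 2.2e-05) on the log2 scale. Atg101 went from 52.3 ± 1.10 to 68.0 ± 1.65 CPM with Thr and to 43.4 ± 0.572 CPM with Cys starvation (log2 0.38 (adjusted p = 6.6e-10) for Thr and -0.27 (adjusted p = 9.5e-07) for Cys). In both genes each group of libraries was separate from the other groups. With the GC and length offsets the Thr changes were larger, at 0.63 for Ulk1 and 0.60 for Atg101. Within a library, the ratio of Ulk1 to Atg13 per kb was 1.75, 1.70 and 1.73 in unstarved, 1.53, 1.45 and 1.47 in Cys-starved and 3.09, 3.32 and 3.16 in Thr-starved libraries, so the Thr-starved libraries were highest and the Cys-starved lowest.

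Ulk2 and Rb1cc1 were called higher with Cys starvation, by 0.37 (adjusted p = 0.026) and 0.12 (adjusted p = 0.016). Both calls were fragile. That of Ulk2, at 152 to 259 counts per library, was lost in 4 of the 9 fits without 1 library. Those 4 each left out an unstarved or Cys-starved library, and without a Thr-starved one the value stayed at 0.37. The call of Rb1cc1 was lost in 3 of the 9 fits, again without an unstarved or Cys-starved library. It was also lost with the deposited size factors (0.08) and after the GC and length offsets (0.01). These offsets moved the Thr value of Rb1cc1 from -0.05 to -0.30 and made it a call.

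The class III PI3K complexes make PI3P, the lipid that marks the site where the membrane grows. Their catalytic core fell with Thr starvation while the subunits that direct it rose. Pik3c3 encodes VPS34, the lipid kinase itself, and Pik3r4 encodes VPS15, its regulatory partner. Pik3c3 (ENSMUSG00000033628; chromosome 18) was at 56.9, 58.4 and 57.2 CPM in the unstarved, 52.9, 51.8 and 52.9 CPM in the Cys-starved and 38.1, 40.2 and 39.2 CPM in the Thr-starved libraries. Pik3r4 (ENSMUSG00000032571; chromosome 9 of GRCm38, 105642978 to 105687657) was at 63.5, 64.9 and 66.4 CPM in the unstarved, 65.4, 66.6 and 63.3 CPM in the Cys-starved and 42.2, 43.5 and 44.9 CPM in the Thr-starved libraries. For both, every Thr-starved library was below every other library, with log2 fold changes of -0.56 (SE 0.034, adjusted p = 1.4e-12) and -0.57 (SE 0.034, adjusted p = 1.1e-12). Cys starvation also lowered Pik3c3, by a smaller amount (-0.13 (adjusted p = 0.0029)), and its libraries lay between those of the other groups. Pik3r4 was at 0.00 (adjusted p = 0.94) with Cys starvation and its Cys-starved and unstarved libraries overlapped.

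Uvrag, Atg14 and Becn1 went up with Thr starvation. UVRAG directs the kinase to endosomes, ATG14 directs it to the forming autophagosome, and Beclin 1, the product of Becn1, belongs to both complexes. Uvrag (ENSMUSG00000035354; chromosome 7 of GRCm38, 98885021 to 99141141) was at 27.4, 27.4 and 25.6 CPM in the unstarved, 26.8, 28.4 and 27.8 CPM in the Cys-starved and 39.1, 44.7 and 42.9 CPM in the Thr-starved libraries. The Thr-starved libraries were above all others, a 1.57-fold difference from unstarved cells (log2 0.66 (SE 0.047, adjusted p = 3.3e-11)), and the Cys-starved and unstarved libraries overlapped (log2 0.04 (adjusted p = 0.52)). Atg14 rose in both starvations, from 39.8 ± 0.804 CPM to 51.1 ± 0.475 CPM with Thr (log2 0.36 (adjusted p = 3.3e-09)) and to 43.1 ± 0.609 CPM with Cys starvation (log2 0.11 (adjusted p = 0.011)). The Cys call of Atg14 was lost with the deposited size factors and without unstarved replicate 3. Becn1 rose with Thr starvation by 0.20 (adjusted p = 5.0e-05) and was at 0.09 (adjusted p = 0.056) with Cys starvation, and it shares 3104 exon bases with Cntd1 on the opposite strand, a gene with a mean of 32.6 counts. Its Thr value was 0.13 with the GC and length offsets.

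Ambra1, whose product binds Beclin 1 and promotes autophagy, was lower in both starvations, at -0.21 (adjusted p = 3.1e-06) for Thr and -0.08 (adjusted p = 0.045) for Cys. These small changes depended on the processing: with the GC and length offsets the Thr value was -0.04 and not called, and the Cys call was lost in 5 of the 9 fits without 1 library and in the fit of the compared groups alone (adjusted p = 0.055). Those 5 each left out an unstarved or Cys-starved library. The ratio of Becn1 to Pik3c3 per kb was 0.572, 0.558 and 0.562 in unstarved, 0.650, 0.660 and 0.663 in Cys-starved and 1.02, 0.944 and 0.904 in Thr-starved libraries. These ratios did not overlap between groups. That of Atg14 to Uvrag was 2.03, 2.04 and 2.10 in unstarved, 2.26, 2.10 and 2.11 in Cys-starved and 1.82, 1.59 and 1.63 in Thr-starved libraries, lowest in the last group.

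PI3P is read by the WIPI proteins, and ATG2 proteins then carry lipid from the endoplasmic reticulum into the growing membrane. The related genes Atg2a and Atg2b moved in opposite directions with Thr starvation. Atg2a (ENSMUSG00000024773; chromosome 19 of GRCm38, 6241668 to 6262335) was at 65.0, 70.0 and 66.2 CPM in the unstarved, 68.9, 70.2 and 69.4 CPM in the Cys-starved and 44.8, 45.6 and 43.5 CPM in the Thr-starved libraries. Atg2b (ENSMUSG00000041341; chromosome 12 of GRCm38, 105616136 to 105685211) was at 51.0, 51.6 and 51.5 CPM in the unstarved, 58.7, 56.7 and 61.3 CPM in the Cys-starved and 76.4, 76.5 and 71.4 CPM in the Thr-starved libraries. In all 3 Thr-starved libraries Atg2a was down, and its mean fell by 33.5% (log2 -0.59 (SE 0.034, adjusted p = 6.5e-13)), and Atg2b was up, 1.45-fold (log2 0.54 (SE 0.036, adjusted p = 6.3e-12)). Cys starvation raised Atg2b as well, to levels between those of the other groups (log2 0.20 (adjusted p = 1.3e-04)), and left Atg2a at 0.05 (adjusted p = 0.25). With the GC and length offsets the Thr value of Atg2a was -0.24, still a call. The ratio of Atg2a to Atg2b per kb was 1.51, 1.61 and 1.52 in unstarved, 1.39, 1.47 and 1.34 in Cys-starved and 0.695, 0.706 and 0.722 in Thr-starved libraries. More Atg2a than Atg2b per kb was thus measured in the first 6 libraries and less in the last 3. Atg2b shares 383 exon bases with Gskip on the opposite strand, which had a mean of 456 counts.

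Wipi2, which recruits the conjugation machinery to PI3P, fell with Thr starvation from 111 ± 3.27 to 85.9 ± 2.95 CPM (log2 -0.37 (adjusted p = 2.9e-10)) and rose with Cys starvation to 121 ± 0.892 CPM (log2 0.13 (adjusted p = 0.0016)). Vmp1, which moves lipid between the leaflets of the endoplasmic reticulum membrane, rose with Thr starvation from 40.1 ± 0.980 to 52.0 ± 1.69 CPM (log2 0.38 (adjusted p = 4.2e-09)) and stood at -0.04 (adjusted p = 0.49) with Cys starvation. The Thr value of Vmp1 was 0.22 with the GC and length offsets. Wipi1 and Atg9a, whose product is the membrane protein of the seeding vesicles, were not called against unstarved cells, with log2 fold changes of 0.11 and -0.11 with Thr and 0.06 and -0.14 with Cys starvation. They were lower than Wipi2 and Vmp1, at 4.52 ± 0.584 and 11.2 ± 0.949 CPM in unstarved cells. Atg9a was called lower with Cys starvation with the deposited size factors (-0.18) and without unstarved replicate 2 (-0.21). Between Thr- and Cys-starved libraries it was called at 0.28 with the GC and length offsets. Of its 5762 exon bases, 1832 are shared with Gm29253 on the same strand. How reads from shared bases were counted is not given, so its level is uncertain.

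**Figure D3:**
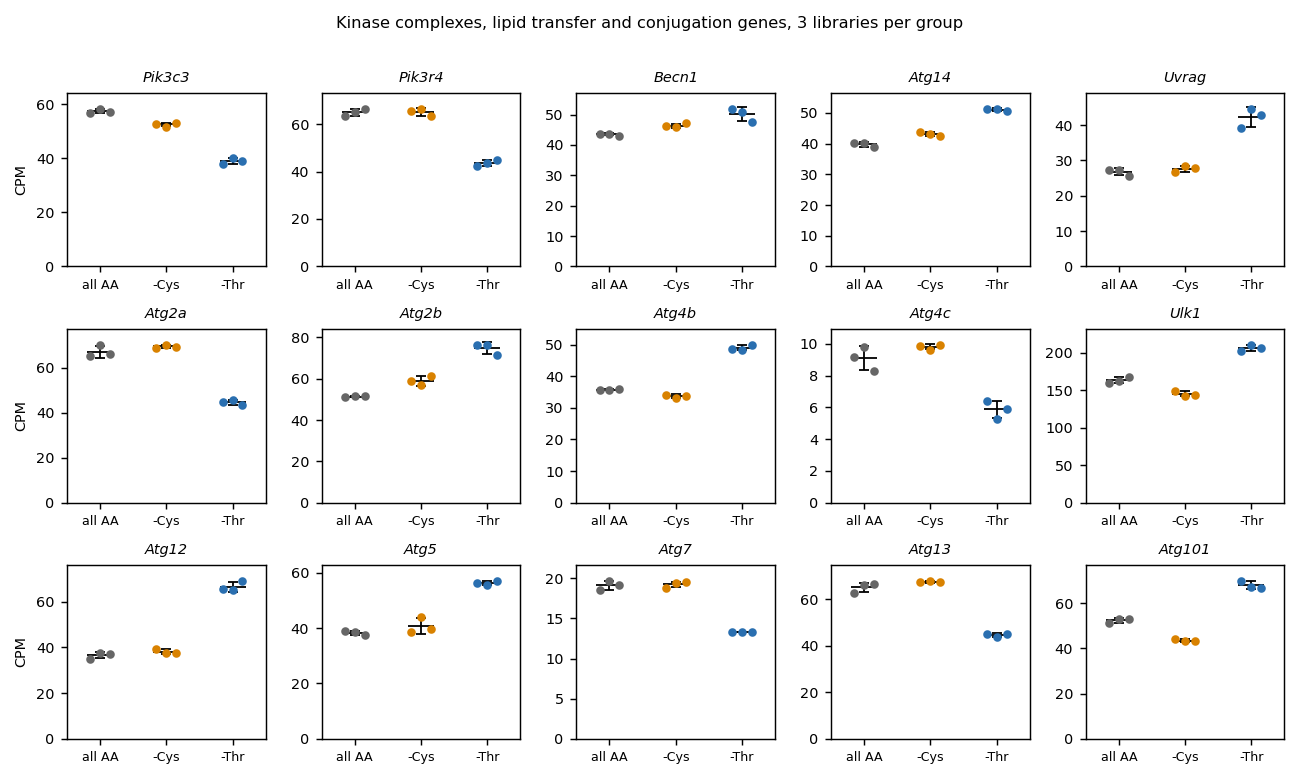
CPM of 15 members of the kinase complexes, lipid transfer and conjugation systems in each library (points), with the mean and SD of the 3 libraries per group, for unstarved (all AA), Cys-starved and Thr-starved cells; axes start at 0. The Thr-starved points stand apart from both other groups in every panel, below them for Pik3c3, Pik3r4, Atg2a, Atg4c, Atg7 and Atg13 and above them for the rest.

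The conjugation systems attach the ATG8 proteins to lipid. ATG7 activates both ubiquitin-like proteins, ATG12 and the ATG8s, ATG10 and ATG3 pass them on, and ATG12 joined to ATG5 works with ATG16L1 as the final ligase. With Thr starvation Atg12, Atg5 and Atg3 were called higher and Atg7 lower, and Atg10 and Atg16l1 were not called. Atg12 (ENSMUSG00000032905; chromosome 18) had the largest change of all members, at 35.0, 37.7 and 37.0 CPM in the unstarved, 39.3, 37.7 and 37.6 CPM in the Cys-starved and 65.4, 65.0 and 69.2 CPM in the Thr-starved libraries. Atg5 (ENSMUSG00000038160; chromosome 10 of GRCm38, 44268358 to 44364291) was at 38.9, 38.6 and 37.5 CPM in the unstarved, 38.7, 43.9 and 39.6 CPM in the Cys-starved and 56.2, 55.6 and 57.1 CPM in the Thr-starved libraries. All 3 Thr-starved libraries were above the other 6, while the Cys-starved and unstarved ones overlapped. The rises were 1.82-fold (log2 0.86 (SE 0.038, adjusted p = 4.6e-15)) and 1.47-fold (log2 0.55 (SE 0.041, adjusted p = 5.7e-11)), beside 0.06 (adjusted p = 0.23) and 0.09 (adjusted p = 0.11) with Cys starvation.

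Atg7 (ENSMUSG00000030314; chromosome 6 of GRCm38, 114643097 to 114860614) fell. It was at 18.5, 19.7 and 19.2 CPM in the unstarved, 18.8, 19.4 and 19.5 CPM in the Cys-starved and 13.3, 13.3 and 13.4 CPM in the Thr-starved libraries. With Thr starvation it fell by 30.4% (log2 -0.52 (SE 0.050, adjusted p = 4.2e-09)), to closely grouped values, and the Cys-starved libraries were level with the unstarved ones (0.01 (adjusted p = 0.93)). Atg3 went from 28.6 ± 0.829 to 34.0 ± 1.37 CPM with Thr (log2 0.25 (adjusted p = 1.3e-04)) and to 25.1 ± 1.75 CPM with Cys starvation (log2 -0.19 (adjusted p = 0.0047)). The Thr value of Atg3 became -0.03, not called, with the GC and length offsets. Atg16l1 fell with Cys starvation (-0.14 (adjusted p = 0.0024)) and was just short of a call with Thr starvation (-0.08 (adjusted p = 0.053)). That Thr value was called without Thr-starved replicate 1 or 2, with counts halved and with the GC and length offsets (-0.14). Atg10 was the least abundant member by count, at 26 to 80 counts per library, with values of 0.27 (adjusted p = 0.43) and 0.21 (adjusted p = 0.61), and its 3 groups overlapped.

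The 4 proteases of the ATG4 family trim the ATG8 proteins before conjugation and release them from lipid afterwards, and ATG4B is the most active toward most of them. Their genes took 3 courses with Thr starvation. Atg4b (ENSMUSG00000026280; chromosome 1 of GRCm38, 93751500 to 93790610) was at 35.7, 35.5 and 35.8 CPM in the unstarved, 34.2, 33.0 and 33.7 CPM in the Cys-starved and 48.6, 48.5 and 50.0 CPM in the Thr-starved libraries. Atg4c (ENSMUSG00000028550; chromosome 4 of GRCm38, 99193934 to 99259787) was at 9.20, 9.79 and 8.27 CPM in the unstarved, 9.86, 9.63 and 9.94 CPM in the Cys-starved and 6.41, 5.28 and 5.90 CPM in the Thr-starved libraries. The Thr-starved libraries were the highest for Atg4b (log2 0.46 (SE 0.035, adjusted p = 8.7e-11)) and the lowest for Atg4c (log2 -0.63 (SE 0.083, adjusted p = 5.7e-07)). Per kb, the ratio of Atg4b to Atg4c was 2.95, 2.75 and 3.29 in unstarved, 2.64, 2.60 and 2.57 in Cys-starved and 5.76, 6.97 and 6.43 in Thr-starved libraries. Neither was called with Cys starvation, at -0.08 (adjusted p = 0.07) and 0.11 (adjusted p = 0.31), although Atg4b was called lower there with the deposited size factors (-0.13) and with the GC and length offsets (-0.10).

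Atg4a rose with Thr starvation, from 4.89 ± 0.387 to 6.12 ± 0.358 CPM (log2 0.32 (adjusted p = 0.0084)). This value is uncertain, since 2115 of its 2202 transcript bases match the pseudogene Atg4a-ps (a mean of 99.3 counts) and the call was lost with the GC and length offsets (0.09). Atg4d stood at -0.03 (adjusted p = 0.56) with Thr starvation, and with those offsets it was called higher, at 0.13. It shares 1405 exon bases with Kri1 on the opposite strand, a gene with a mean of 1908 counts. Of the Atg4c transcript, 96 bases match Cflar (mean 716 counts).

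The ATG8 proteins, the LC3 and GABARAP families, coat the membrane and bind the receptors. With Thr starvation 4 of the 5 genes rose and 0 fell, and with Cys starvation 2 fell and 0 rose by edgeR's test, and both counts of 0 also held at an unadjusted p under 0.05 and by DESeq2. Over all genes tested 31.1% rose and 31.9% fell with Thr and 17.5% and 18.8% with Cys starvation. Among genes at 1 CPM or more the shares were 38.1% and 38.5% with Thr and 22.4% and 25.4% with Cys starvation. With 5 genes such counts describe this family only. Map1lc3a (ENSMUSG00000027602; chromosome 2 of GRCm38, 155276297 to 155278073), which encodes LC3A, was at 16.4, 18.4 and 16.6 CPM in the unstarved, 16.3, 18.6 and 17.2 CPM in the Cys-starved and 22.0, 20.6 and 21.3 CPM in the Thr-starved libraries. Map1lc3b (ENSMUSG00000031812; chromosome 8 of GRCm38, 121590361 to 121598760), which encodes LC3B, the form most used as a marker of autophagosomes, was at 115, 111 and 112 CPM in the unstarved, 117, 109 and 115 CPM in the Cys-starved and 138, 129 and 139 CPM in the Thr-starved libraries. The Thr-starved libraries of both were above all others, by 1.24-fold (log2 0.31 (SE 0.058, adjusted p = 5.7e-05)) and 1.20-fold (log2 0.27 (SE 0.032, adjusted p = 1.2e-07)) over unstarved cells, and the Cys-starved and unstarved libraries overlapped (0.02 (adjusted p = 0.82) and 0.01 (adjusted p = 0.77)). The Thr value of Map1lc3a was 0.67 with the GC and length offsets.

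Gabarap, whose product binds the ULK1 complex and many receptors, rose most among the ATG8 genes. Gabarap (ENSMUSG00000018567; chromosome 11 of GRCm38, 69991143 to 69994951) was at 44.0, 48.5 and 46.5 CPM in the unstarved, 43.8, 43.3 and 42.1 CPM in the Cys-starved and 63.7, 61.9 and 65.2 CPM in the Thr-starved libraries. Gabarapl2 (ENSMUSG00000031950; chromosome 8 of GRCm38, 111940703 to 111953612), which encodes GATE-16, was at 62.6, 57.5 and 56.5 CPM in the unstarved, 49.3, 49.9 and 48.5 CPM in the Cys-starved and 63.3, 64.1 and 63.2 CPM in the Thr-starved libraries. Gabarap rose 1.37-fold with Thr starvation (log2 0.46 (SE 0.037, adjusted p = 2.7e-10)) with a wide gap between the groups. The Thr rise of Gabarapl2 was small (log2 0.11 (SE 0.036, adjusted p = 0.011)), and its nearest unstarved library was only just below the Thr-starved ones. Without unstarved replicate 3 it was 0.08 and not called, and with the GC and length offsets it was -0.02.

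With Cys starvation Gabarapl2 fell by 16.3% (log2 -0.26 (SE 0.036, adjusted p = 6.1e-06)) and Gabarap fell by 7.04% (log2 -0.11 (SE 0.038, adjusted p = 0.034)), and in both all Cys-starved libraries were below all unstarved ones. The fall of Gabarap lost its call in 4 of the 9 fits without 1 library (-0.11 to -0.07) and with the GC and length offsets (-0.08, adjusted p = 0.075). Those 4 each left out an unstarved or Cys-starved library. Gabarapl1 (ENSMUSG00000030161; chromosome 6 of GRCm38, 129533160 to 129542346), which encodes GEC1, was at 17.3, 17.9 and 16.9 CPM in the unstarved, 19.6, 18.3 and 18.1 CPM in the Cys-starved and 16.5, 15.9 and 17.1 CPM in the Thr-starved libraries. It was called in neither starvation against unstarved cells (-0.07 (adjusted p = 0.26) with Thr and 0.11 (adjusted p = 0.12) with Cys), but the Thr-starved libraries were all below the Cys-starved ones (log2 -0.18 (adjusted p = 0.0057)). With the GC and length offsets that difference was -0.10 and not called (adjusted p = 0.093). It was the single ATG8 gene whose Thr-starved level was below the Cys-starved one.

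Reads of 2 ATG8 genes can be split with near-identical copies. Stretches of 349 and 352 bases of Gabarapl2 match Gm3724 (mean 930.4 counts) and Gm6051 (mean 292 counts), beside 2894 to 4633 counts for the gene itself. Map1lc3b, at 6034 to 10199 counts, matches Gm6055 over 282 bases (mean 1999.8 counts) and, at lower counts, Gm6054, Gm12727, Gm5612 and Slfn5. It also shares 58 exon bases with Zcchc14 on the opposite strand. The part of these copies in the results was not tested.

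**Figure D4:**
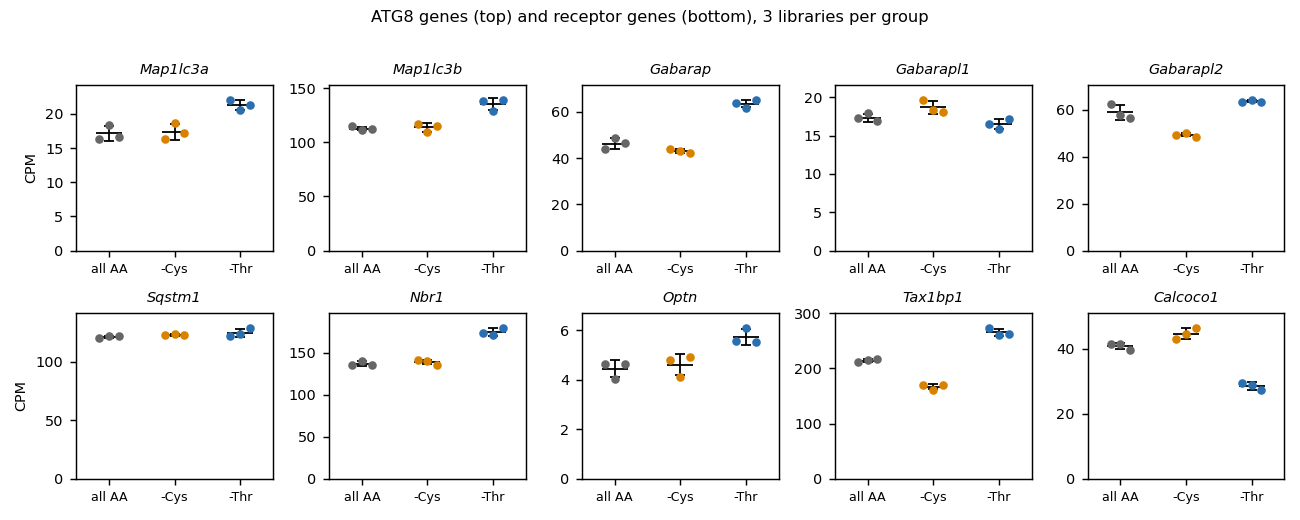
CPM of the 5 ATG8 genes (top) and the 5 receptor genes (bottom) in each library (points), with the mean and SD of the 3 libraries per group; axes start at 0. Thr-starved points are above unstarved ones except in Gabarapl1, where the groups overlap, and Calcoco1, where they are below, and the Sqstm1 groups differ by no more than 3.08% in their fitted levels from unstarved cells.

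The receptors tie cargo, often marked with ubiquitin, to the ATG8 proteins. After Thr starvation Nbr1, Optn and Tax1bp1 were higher and Calcoco1 was lower, while Sqstm1 was not called. Sqstm1 (ENSMUSG00000015837; chromosome 11 of GRCm38, 50199366 to 50210827) encodes p62, a receptor for ubiquitinated aggregates that is itself degraded with its cargo. It was at 120.1, 122 and 122 CPM in the unstarved, 122, 124 and 123 CPM in the Cys-starved and 122, 124 and 129 CPM in the Thr-starved libraries. Its log2 fold changes were 0.04 (SE 0.026, adjusted p = 0.15) with Thr and 0.02 (SE 0.026, adjusted p = 0.56) with Cys starvation, and although the groups were separate from the unstarved one, the gaps were within 1 CPM. With the GC and length trends removed the Thr value was 0.16 and was called (adjusted p = 3.0e-06). Sqstm1 shares 580 exon bases with Mrnip on the opposite strand (mean 309 counts).

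Tax1bp1 and Calcoco1, relatives within the CALCOCO family, moved in opposite directions in both starvations. Tax1bp1 (ENSMUSG00000004535; chromosome 6 of GRCm38, 52713729 to 52766780), the product of which clears ubiquitinated aggregates, was at 212, 215 and 216 CPM in the unstarved, 169, 161 and 171 CPM in the Cys-starved and 273, 260.1 and 263 CPM in the Thr-starved libraries. Calcoco1 (ENSMUSG00000023055; chromosome 15 of GRCm38, 102706777 to 102722178), a receptor for pieces of the endoplasmic reticulum, was at 41.4, 41.4 and 39.6 CPM in the unstarved, 43.1, 44.6 and 46.3 CPM in the Cys-starved and 29.5, 29.0 and 27.2 CPM in the Thr-starved libraries. The 3 groups were fully separate in both genes, with Thr-starved libraries highest and Cys-starved lowest for Tax1bp1 and the reverse for Calcoco1. Tax1bp1 rose 1.24-fold with Thr starvation (log2 0.31 (SE 0.026, adjusted p = 4.4e-10)) and fell by 22.1% with Cys starvation (log2 -0.36 (SE 0.026, adjusted p = 3.3e-10)), the largest decrease of any member there. Calcoco1 fell by 30.2% with Thr (log2 -0.52 (SE 0.042, adjusted p = 2.3e-10)) and was called higher with Cys starvation (log2 0.13 (SE 0.040, adjusted p = 0.014)). With the GC and length offsets the Thr values were 0.10 for Tax1bp1 and -0.26 for Calcoco1, both still called. The Cys call of Calcoco1 was lost with the deposited size factors (0.09) and without unstarved replicate 3 or Cys-starved replicate 3. Within a library, the ratio of Tax1bp1 to Calcoco1 per kb was 3.58, 3.62 and 3.81 in unstarved, 2.74, 2.53 and 2.58 in Cys-starved and 6.47, 6.27 and 6.76 in Thr-starved libraries. The order of the groups is that of Tax1bp1 itself.

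Nbr1 (ENSMUSG00000017119; chromosome 11 of GRCm38, 101552149 to 101581951), which works with p62 on aggregates and also on peroxisomes, was at 135, 140.4 and 136 CPM in the unstarved, 141, 140.3 and 136 CPM in the Cys-starved and 174, 171 and 179.6 CPM in the Thr-starved libraries. Optn (ENSMUSG00000026672; chromosome 2 of GRCm38, 5020642 to 5064051), which encodes optineurin, a receptor for damaged mitochondria, was at 4.65, 4.04 and 4.64 CPM in the unstarved, 4.78, 4.11 and 4.91 CPM in the Cys-starved and 5.55, 6.08 and 5.53 CPM in the Thr-starved libraries. In both, the Thr-starved libraries were above the other 6 and the Cys-starved and unstarved ones overlapped. The Thr rises were 1.28-fold for Nbr1 (log2 0.35 (SE 0.027, adjusted p = 7.5e-11)) and 1.29-fold for Optn (log2 0.36 (SE 0.097, adjusted p = 0.0024)), similar in size, but Optn rested on 244 to 406 counts per library and Nbr1 on 7317 to 13174. Cys values were 0.02 (adjusted p = 0.59) and 0.05 (adjusted p = 0.74).

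Stx17, the SNARE protein of the closed autophagosome that lets it fuse with the lysosome, rose with Thr starvation from 5.75 ± 0.654 to 7.38 ± 0.417 CPM (log2 0.37 (SE 0.096, adjusted p = 0.002)). With Cys starvation it stood at 5.34 ± 0.590 CPM and was not called (-0.10 (adjusted p = 0.46)).

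Other genes of the pathway were counted from 3 further lists of 52 genes, of which 50 were in the table. With Thr starvation 25 of the 50 rose, 14 fell and 11 were not called, a called share of 78.0% beside the 63.0% of all genes tested and 76.6% of those at 1 CPM or more, with a median log2 fold change of 0.08. Cys starvation raised 17 and lowered 9 (52.0% called, beside 36.3% and 47.8%; median 0.06). The counts by direction that follow stand beside 31.1% of all genes higher and 31.9% lower with Thr, and 17.5% and 18.8% with Cys starvation. Among genes at 1 CPM or more the shares were 38.1% and 38.5% with Thr and 22.4% and 25.4% with Cys starvation. Of 19 organelle receptors, 8 rose and 7 fell with Thr starvation and 5 rose and 7 fell with Cys starvation. Of 13 fusion and tethering genes, 9 rose and 2 fell with Thr, and 7 rose and 2 fell with Cys starvation. The 18 regulators split into 8 higher and 5 lower with Thr, and 5 higher and 0 lower with Cys starvation by edgeR's test (1 lower at an unadjusted p under 0.05 and 1 by DESeq2).

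With Thr starvation the called changes of Tollip, Foxo3, Sec62, Bnip3 and Stbd1 were larger in size than any among the members, and that of Epg5 was not. Tollip, which encodes a receptor for protein aggregates, went from 44.6 ± 0.934 CPM in unstarved to 99.2 ± 1.52 CPM in Thr-starved cells. It rose 2.23-fold with Thr starvation (log2 1.15 (SE 0.031, adjusted p = 8.1e-19)) and was at -0.05 (adjusted p = 0.21) with Cys starvation. Foxo3, a transcription factor known to drive autophagy genes, rose with Thr from 58.0 ± 0.738 to 116 ± 0.892 CPM (log2 1.00 (SE 0.029, adjusted p = 3.5e-18)) and with Cys starvation to 72.9 ± 2.16 CPM (log2 0.33 (adjusted p = 9.2e-09)). Sec62, whose product is a receptor for the endoplasmic reticulum as well as part of its protein import, rose by 0.90 (adjusted p = 1.0e-17) and 0.17 (adjusted p = 6.3e-05), and Epg5, a tether of autophagosomes to late endosomes, by 0.83 (adjusted p = 1.3e-11) and 0.29 (adjusted p = 3.2e-04), with Thr and Cys starvation in turn. Bnip3, a mitochondrial receptor known for its induction by hypoxia, dropped by 55.0% with Thr (log2 -1.15 (adjusted p = 1.6e-11)) and dropped by 38.5% with Cys starvation (log2 -0.70 (adjusted p = 1.6e-07)), and its 3 groups did not overlap. Stbd1, a glycogen receptor, fell with Thr starvation, with a log2 fold change of -1.12 (adjusted p = 1.0e-04) from a low level of 1.12 ± 0.0957 CPM.

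**Figure D5:**
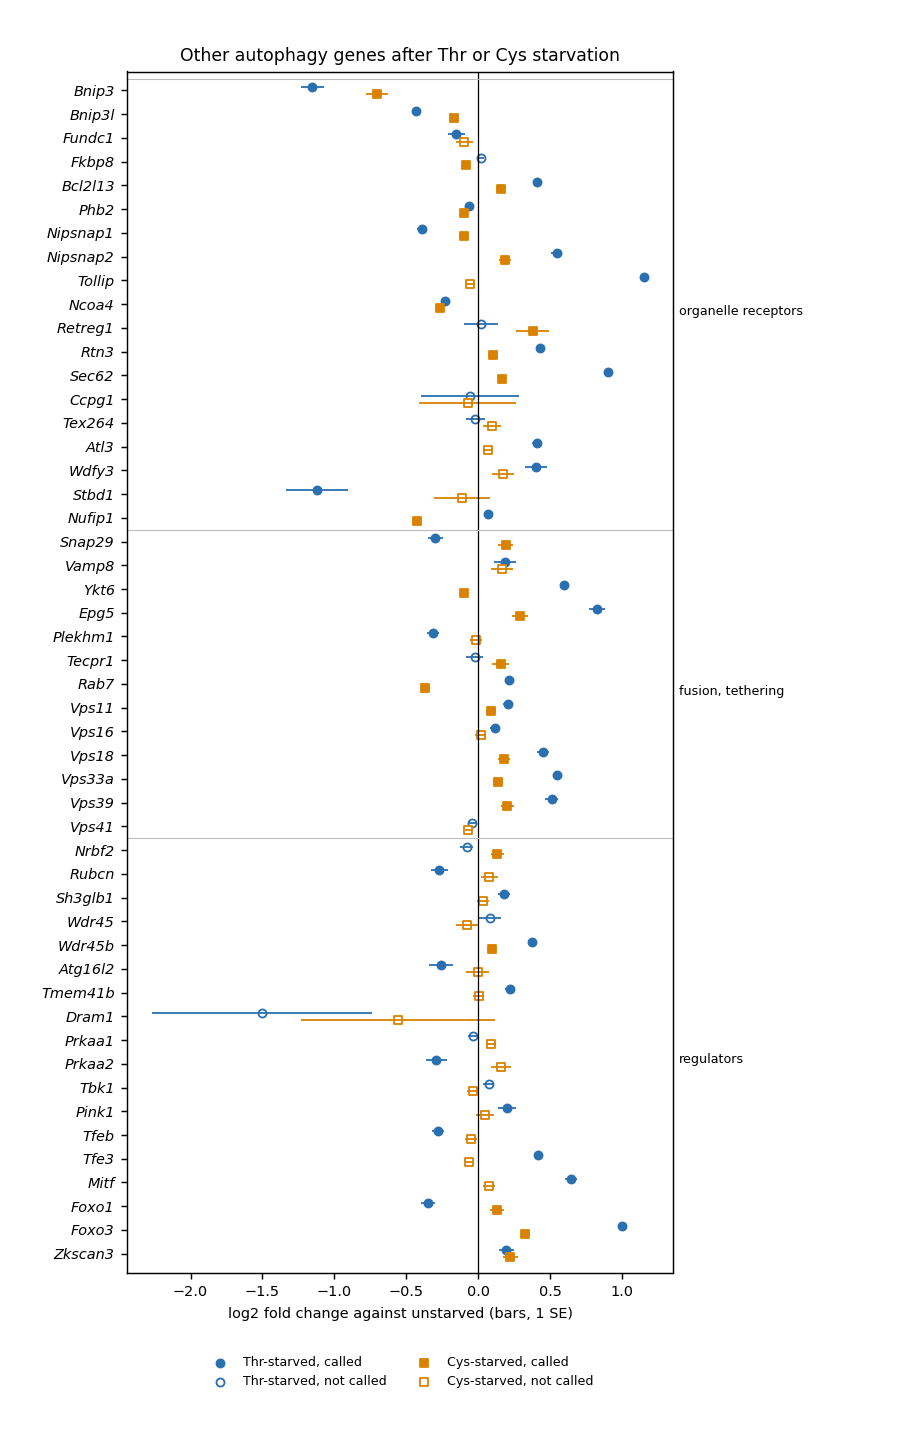
Log2 fold change against unstarved cells of 50 further autophagy genes in 3 lists, after Thr starvation (blue circles) or Cys starvation (orange squares), with bars of 1 SE; filled symbols were called by edgeR's quasi-likelihood test. Tollip and Foxo3 lie at 1.15 and 1.00 and Bnip3 and Stbd1 at -1.15 and -1.12 with Thr starvation, and Dram1, at -1.50, was not called.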

How the data were processed

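Poly(A) libraries of 9 samples were prepared with a directional kit and sequenced as paired reads of 43 bases. The authors mapped the reads to GRCm38 with STAR 2.7.4a, counted them per Ensembl gene with HTSeq (strand and overlap settings are not given in the sources used here) and deposited the raw counts. The authors also deposited a signal table, these counts divided by 1 size factor per library (DESeq 1.30.1 and R 4.0.3 in the submitters' processing notes), which was used only as an alternative scaling.

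The raw counts were fitted with edgeR 4.0.16 in R 4.3.3 (TMM, quasi-likelihood F test, all 9 libraries in a single fit, genes with a total of at least 1 count) and adjusted by Benjamini-Hochberg over 20143 genes. The SE is the absolute log2 fold change over the square root of F. Symbols and positions came from GENCODE M21, which named 20161 genes. Matches of at least 86 bases at 98% identity were searched with BLAST 2.17.0. All 38 members were accounted for, and values of every library were given for the ATG8 and receptor genes and for other called members that moved by 0.4 or more (absolute log2) against unstarved cells. Further pathway genes were named if called at 0.8 or more, Dram1 in a caption after its value was seen, and the ratios between members were chosen after their values were seen. Members and lists were chosen with earlier results of these data known.

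Alternatives were DESeq2 1.42.0, the deposited size factors, filterByExpr, fits of the compared groups alone, a replicate block, an absolute log2 fold change of 0.5 or more, offsets for GC content and length per library (loess, span 0.3), leaving out each library and, added after seeing the data, halved counts. Tested on simulated data of the Thr comparison over 20141 genes, the fit recovered 198 of 200 changed genes with 12 false calls. Only these 200 well counted genes were changed there, each by a log2 of 0.5 or more, and 1 spread was used for all genes. In the real comparison 63.0% of genes were called and many called members moved by less, so these rates do not carry over to the calls reported here.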

Additional observations from a re-analysis of the deposited data

Results flagged for a closer look

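For 8 members Thr and Cys starvation gave calls in opposite directions, and the direct comparison of Thr-starved with Cys-starved libraries by edgeR's quasi-likelihood test was called as well. Thr-starved libraries were higher than Cys-starved ones by 0.51 for Ulk1, 0.65 for Atg101, 0.43 for Atg3, 0.56 for Gabarap, 0.37 for Gabarapl2 and 0.67 for Tax1bp1 on the log2 scale. They were lower for Wipi2, with a log2 difference of -0.49, and for Calcoco1, with -0.65. Adjusted p ranged from 7.7e-16 for Tax1bp1 to 6.9e-08 for Atg3, and each difference was seen in 3 of 3 against 3 of 3 libraries. The 2 starvations share their unstarved libraries. Calls in opposite directions were made for 7.45% of all genes tested and 10.2% of those at 1 CPM or more. With the GC and length offsets the Thr values of Atg3 (-0.025) and Gabarapl2 (-0.024) had the same sign as their Cys values and were not called. The Cys call of Gabarap was lost with those offsets (adjusted p = 0.075) and that of Calcoco1 with the deposited size factors (0.092).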

How the results depend on the processing

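Of 1824 log2 fold changes of single members over the alternatives, 36 lost and 21 gained a call with the same sign. The sign changed in 5 with a call in either fit and in 43 that were called in neither. All 5 came from the GC and length offsets: with Thr starvation Atg4d went to 0.13, Atg3 to -0.025 and Gabarapl2 to -0.024, and between Thr- and Cys-starved libraries Atg4d went to 0.20 and Ambra1 to 0.074. The cause was not tested. Of the 36 lost and 21 gained calls, these offsets gave 7 and 6 over 114 values, and leaving out libraries gave 23 and 8 over 1026. DESeq2 and filterByExpr changed no member's call. Above an absolute log2 fold change of 0.5, 4 members were higher and 7 lower with Thr, 0 higher and 0 lower with Cys (6 and 9 without that limit), and 7 higher and 6 lower between the starvations. Called or not, 40.3%, 13.1% and 37.1% of all genes reached that limit, in the same order of comparisons. With the deposited size factors 3 members were called higher with Cys starvation, instead of 6. Leaving out each of the 9 libraries gave 19 to 21 higher and 9 to 10 lower with Thr, 3 to 7 higher and 7 to 9 lower with Cys, and 19 to 21 higher and 11 lower between the starvations. The lowest Cys count came without unstarved replicate 3.

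With the replicate block, 21 members were higher and 9 lower with Thr, 6 higher and 7 lower with Cys, and 20 higher and 11 lower between the starvations. Same-numbered libraries did not deviate together (correlations of -0.24 to 0.11 over 11410 genes). With so few libraries per group, this cannot exclude that the numbers pair them. The block ended the Cys calls of Ambra1 and Gabarap and made Ulk2 a call with Thr. Even values made up 67.8% of counts from 1 to 20, and halving the counts gave 1 further call. Depth limits Atg10, at 26 to 80 counts, and Ulk2, at 152 to 259.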

Other observations

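Members known from other work as targets of starvation-responsive transcription factors were counted as 3 short lists, which overlap one another and were chosen with earlier results of these data known. Of 12 genes known as targets of ATF4 or CHOP, the factors of the integrated stress response, 8 rose and 1, Atg7, fell with Thr starvation (median log2 fold change 0.26), beside 31.1% of all genes called higher and 31.9% lower (38.1% and 38.5% of those at 1 CPM or more). With Cys starvation 0 of the 12 rose by edgeR's quasi-likelihood test (2 at an unadjusted p under 0.05 and 0 by DESeq2) and 4, Atg16l1, Atg3, Gabarapl2 and Gabarap, fell (median 0.02), beside 17.5% of all genes higher and 18.8% lower. In the direct comparison 8 were higher and 1 lower with Thr starvation, beside 30.4% and 31.6% of all genes. Of the genes at 1 CPM or more, 22.4% were higher and 25.4% lower with Cys starvation, and 38.7% and 37.1% in the direct comparison. The counts moved with the GC and length offsets. With Thr starvation Atg3 (-0.025) and Gabarapl2 (-0.024) were then not called, Atg16l1 was called lower (-0.14) and Sqstm1 higher (0.16). The Cys call of Gabarap was lost.

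Of 4 known TFEB targets, Uvrag and Map1lc3b rose with Thr starvation and Wipi1 and Sqstm1 were not called, and with Cys starvation 0 of the 4 were called by edgeR's quasi-likelihood test, at an unadjusted p under 0.05 or by DESeq2. Of 7 known FOXO3 targets, Map1lc3b, Atg12, Atg4b and Becn1 rose and Pik3c3 fell with Thr starvation, and with Cys starvation Ulk2 rose and Pik3c3 fell. These counts, too, stand beside 31.1% of all genes higher and 31.9% lower with Thr, and 17.5% and 18.8% with Cys starvation. Among genes at 1 CPM or more the shares were 38.1% and 38.5% with Thr and 22.4% and 25.4% with Cys starvation. Lists of 4, 7 or 12 genes are too short to be read against them.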
